A study of Mus musculus with 12 samples.

Results

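The circadian clock was followed in mouse scars through 10 of its genes, *Per1*, *Per2*, *Per3*, *Cry1*, *Cry2*, *Arntl*, *Npas2*, *Nr1d1*, *Dbp* and *Nfil3*, out of 35976 genes listed. They were picked by symbol because *Per1* had been seen to differ between the genotypes in these same scars, so the genotype differences below are a description with no test, and *Per1* is tested only where both genotypes are averaged. RNA came from a part of the scar, with its margins removed, of male mice aged 8 to 12 weeks. Each of 4 groups held 3 mice: *Tem1WT/WT* sham, *Tem1WT/WT* traction, *Tem1lacZ/lacZ* sham and *Tem1lacZ/lacZ* traction. *Tem1* (gene symbol *Cd248*) codes for a surface glycoprotein of fibroblasts and pericytes, and in *Tem1lacZ/lacZ* mice, backcrossed to C57BL/6J, its single exon is replaced by *lacZ* in every cell of the body. All mice carried a split wound of 1.5 cm in the back skin and a plastic device from day 6. The device was lengthened by 1 mm a day to 8 mm in the traction groups and was left unextended in the sham groups.

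The clock is a feedback loop of transcription that runs in nearly every cell. ARNTL (BMAL1) pairs with CLOCK or its relative NPAS2 and switches on *Per* and *Cry* genes through E-boxes, and the PER and CRY proteins return to the nucleus to silence that pair. NR1D1 (REV-ERBα) represses *Arntl*, while DBP activates and NFIL3 represses genes with D-boxes, *Per3* among them. *Per1* also answers outside signals through CREB and the glucocorticoid receptor, and in skin the clock is known for timing cell division, the hair cycle and repair. Levels of most of these genes change through the day, and the hour at which the scars were taken is not given in the sources used here.

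Sites of clock factors were looked for as short exact matches near the start sites of these genes. RefSeq promoters (GRCm38.p6) were found for 9 of the 10 genes, 11 promoters in all. Exact matches on both strands were sought in the 250 bases before each start to the E-box CACGTG, the D-boxes TTATGTAA and TTACGTAA, the cyclic AMP response element TGACGTCA and the ROR or REV-ERB element AGGTCA. Over 32851 promoters these were found in 6.02%, 0.931%, 1.55% and 14%, in that order. *Per3* held 2 D-boxes, the nearer one 150 bases before the start, and *Cry1* an E-box at 54 bases. *Per1* held an E-box at 160 bases and a ROR or REV-ERB element at 131 bases in 1 promoter and no match in its other promoter. *Nfil3* held a ROR or REV-ERB element 6 bases before its start, within 34 bases of the window that GENCODE places in an exon. No match was found for *Npas2*, *Cry2*, *Dbp*, *Arntl* or *Nr1d1* in this window, and sites farther away or with other bases were not sought. The first 3 sequences below belong to *Per3*, *Cry1* and *Per1*, whose levels are compared in the text, and the last to *Tef*, a D-box activator like *Dbp* whose level followed that of *Dbp* most closely between mice. Each is given 5′ to 3′ on the strand of its gene, at chr4:151044666-151044915 (minus), chr10:85185065-85185304 (minus), chr11:69098699-69098947 (plus) and chr15:81811164-81811413 (plus), with E-boxes and D-boxes in capitals. Distances above are counted in the window of 250 bases, and the 10 bases of *Cry1* and the 1 base of *Per1* next to the start, which GENCODE places in an exon, are left out of the sequences.
Per3: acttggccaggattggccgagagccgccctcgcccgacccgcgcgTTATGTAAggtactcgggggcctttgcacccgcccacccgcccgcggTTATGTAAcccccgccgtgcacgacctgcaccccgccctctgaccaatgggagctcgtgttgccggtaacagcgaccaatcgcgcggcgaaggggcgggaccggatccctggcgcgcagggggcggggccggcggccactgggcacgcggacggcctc
Cry1: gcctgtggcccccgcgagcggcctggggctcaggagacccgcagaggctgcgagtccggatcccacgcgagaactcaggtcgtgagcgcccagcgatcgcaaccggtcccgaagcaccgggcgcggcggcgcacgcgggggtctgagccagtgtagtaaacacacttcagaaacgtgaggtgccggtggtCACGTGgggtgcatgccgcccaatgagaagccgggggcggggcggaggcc
Per1: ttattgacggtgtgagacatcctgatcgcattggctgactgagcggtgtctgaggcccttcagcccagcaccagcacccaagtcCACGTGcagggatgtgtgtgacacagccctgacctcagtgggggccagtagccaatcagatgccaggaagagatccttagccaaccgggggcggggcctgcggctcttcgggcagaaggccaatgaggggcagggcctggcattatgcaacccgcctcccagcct
Tef: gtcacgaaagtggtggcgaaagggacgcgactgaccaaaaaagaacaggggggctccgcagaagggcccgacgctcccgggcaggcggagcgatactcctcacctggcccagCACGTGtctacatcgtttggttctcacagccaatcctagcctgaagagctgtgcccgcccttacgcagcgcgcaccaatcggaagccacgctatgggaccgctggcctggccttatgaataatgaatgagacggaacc

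The libraries held 41536788 to 64644293 counts, and each of the 10 genes was among the 18853 genes that passed the filter on low counts. *Cd248* had 3883 to 16413 counts in the libraries of *Tem1WT/WT* mice and 0 to 13 in those of *Tem1lacZ/lacZ* mice. All 8 fibroblast markers and all 7 keratinocyte markers were detected in every library. Replicate 1 of the *Tem1WT/WT* traction group stood apart in its neutrophil markers, whose summed level was 6792 CPM (counts scaled to library size, TMM-normalized) against 287 to 609 CPM in the other mice of that group and 62.0 to 97.6 CPM in *Tem1WT/WT* sham mice. Replicate 1 of the *Tem1WT/WT* sham group had the highest sum of skeletal muscle markers, 8217 CPM against 182 to 2385 CPM in the other libraries. In whole scars, fewer cells of a type and less RNA per cell cannot be told apart.

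Set per kilobase of exon, *Per1* was the most abundant of the 10 genes in *Tem1WT/WT* sham scars and *Npas2* the least. The mean levels there were 17.2 ± 0.254 CPM per kb for *Per1* (SD, n = 3), 15.1 ± 8.06 for *Nr1d1*, 14.1 ± 8.55 for *Dbp* and 10.8 ± 2.77 for *Nfil3*. After a gap came *Per3* at 3.89 ± 1.79 CPM per kb, *Cry2* at 3.40 ± 1.10, *Arntl* at 3.04 ± 0.141, *Cry1* at 2.89 ± 0.684 and *Per2* at 2.07 ± 0.573, and *Npas2* was last at 0.502 ± 0.149. Between neighbours in this order, the mice did not overlap for *Nfil3* and *Per3* or for *Per2* and *Npas2*, and they overlapped for every other pair of neighbours. *Clock* itself, the usual partner of ARNTL, stood at 6.08 ± 0.689 CPM per kb, above *Arntl* and far above *Npas2*. In *Tem1WT/WT* traction scars *Nfil3* had the highest mean, 44.2 ± 43.2 CPM per kb, with an SD nearly the size of the mean. Its mice ran from 14.8 to 93.8 CPM per kb, with replicate 1 the highest. *Per1* was next at 30.8 ± 8.12 CPM per kb, and its mice, at 24.9 to 40.1, lay within that range.

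**Figure D1:**
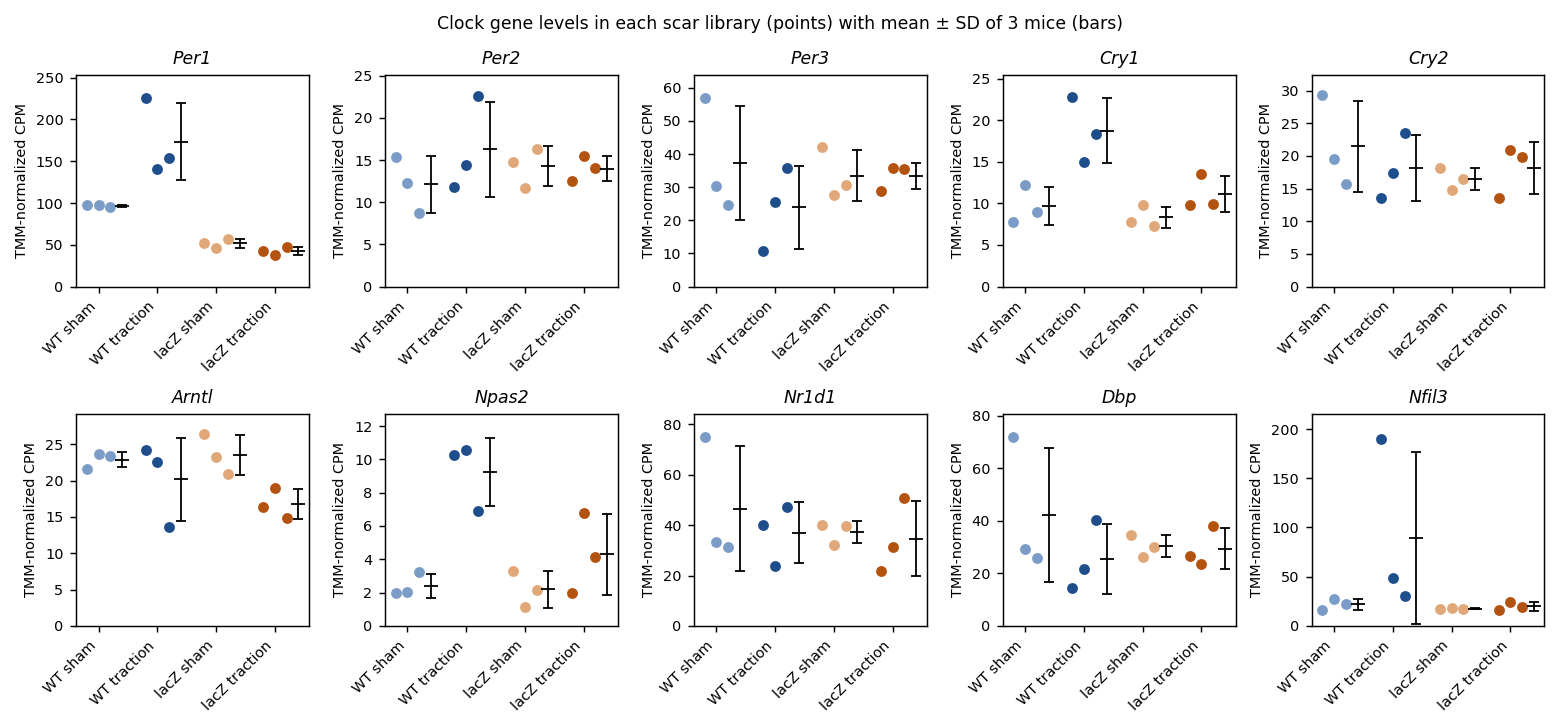
TMM-normalized CPM (vertical axis, from 0) of the 10 clock genes in each of 12 scar libraries. Points are single mice, and the bars beside them give the mean ± SD of 3 mice. *Per1* lies between 37.9 and 57.1 CPM in *Tem1lacZ/lacZ* mice and at 95.2 CPM or above in *Tem1WT/WT* mice, while *Per3*, *Dbp* and *Nr1d1* vary mostly between mice of the same group.

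*Per1*, the gene for the PER protein most readily induced from outside the clock, was lower in every *Tem1lacZ/lacZ* scar than in every *Tem1WT/WT* scar. Its levels were 97.1, 98.0 and 95.2 CPM in *Tem1WT/WT* sham mice and 226, 140.4 and 154 CPM with traction. Those of *Tem1lacZ/lacZ* mice were 52.7, 46.4 and 57.1 CPM in the sham group and 42.8, 37.9 and 47.5 CPM with traction. The sham mice of *Tem1WT/WT* thus lay close to each other, and no mouse of one genotype reached the range of the other. *Per1* was 1.86-fold lower in *Tem1lacZ/lacZ* than in *Tem1WT/WT* sham mice, a log2 difference of −0.89 (standard error 0.18), and 4.06-fold lower with traction, −2.02 (standard error 0.18). Without replicate 1 of the *Tem1WT/WT* traction group, the mouse with the high neutrophil markers, the second difference was −1.75.

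With traction *Per1* was higher in *Tem1WT/WT* mice, where the 3 traction libraries lay above the 3 sham libraries, and its estimate in *Tem1lacZ/lacZ* mice was in the other direction with overlapping groups. The log2 differences between traction and sham were 0.84 (standard error 0.18) and −0.29 (standard error 0.18), which leaves −1.13 (standard error 0.25) between the genotypes, given without a test because they share libraries with the difference that singled out *Per1*. Without replicate 1 of the *Tem1WT/WT* traction group the first was 0.59 and the difference between genotypes −0.84. Averaged over both genotypes, a contrast that does not draw on the genotype difference, *Per1* did not pass the threshold (edgeR's quasi-likelihood test gave an adjusted p of 0.162 for a log2 fold change of 0.28, with a standard error of 0.13). Across mice of the same group, *Per1* followed the summed neutrophil markers (r = 0.752 over 12 libraries) and the sum of 8 immediate early genes (r = 0.714). The sums of adipocyte markers, skeletal muscle markers and glucocorticoid targets gave similar values (r = 0.711, 0.646 and 0.605). The remaining lists lay between −0.366 for fibroblast and 0.425 for macrophage markers. Replicate 1 of the *Tem1WT/WT* traction group holds the highest value of *Per1* and of the neutrophil and immediate early sums. The part of any of these lists in the level of *Per1* was not tested.

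Of the 9 other genes, *Nfil3*, *Npas2* and *Cry1* also had groups that did not overlap between the genotypes under traction, all lower in *Tem1lacZ/lacZ* mice, and none of the 9 did so in the sham groups. Over all genes tested, 26.6% did not overlap between the genotypes with traction and 26.8% in the sham groups, and an adjusted p under 0.05 was reached by 0.106% and 0.0106%. The log2 differences with traction were −2.17 (standard error 0.55) for *Nfil3*, −1.10 (standard error 0.47) for *Npas2* and −0.75 (standard error 0.23) for *Cry1*, but *Nfil3* stood at −0.95 without replicate 1 of the *Tem1WT/WT* traction group. The 6 others lay between −0.27 for *Arntl* and 0.48 for *Per3*. In the sham groups the 9 genes lay between −0.48 for *Dbp* and 0.24 for *Per2*, each with overlapping mice, and *Dbp* turned to 0.13 without replicate 1 of the *Tem1WT/WT* sham group. Of these 10 genes only *Per1*, whose genotype difference led to their choice, had sham groups of the genotypes that did not overlap.

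**Figure D2:**
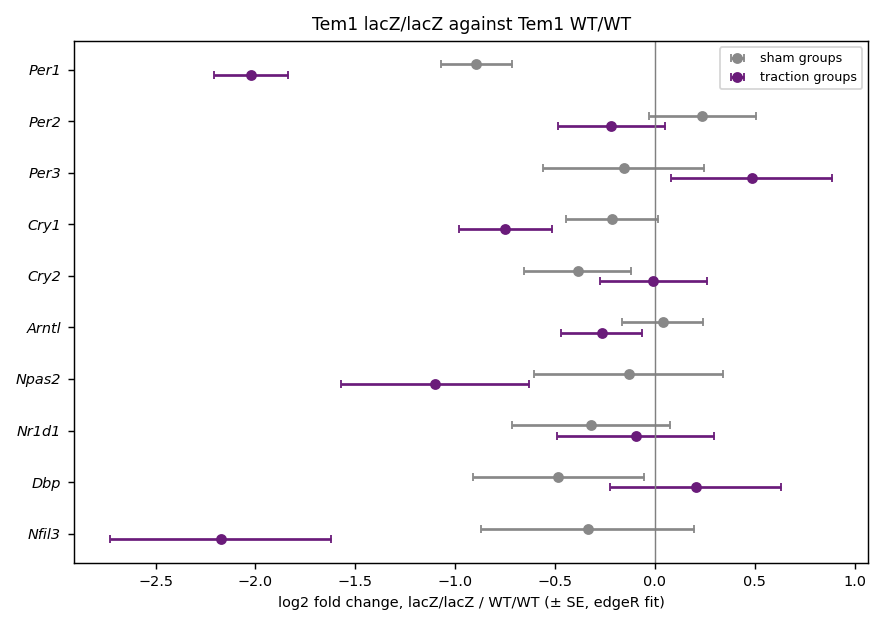
Log2 fold change between *Tem1lacZ/lacZ* and *Tem1WT/WT* mice (horizontal axis) of each clock gene in the sham groups (grey) and the traction groups (purple). Points are estimates and bars ± 1 standard error from the edgeR fit. *Per1* lies at −0.89 and −2.02, and *Nfil3*, *Npas2* and *Cry1* lie left of −0.7 with traction.

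In the positive limb of the loop, *Npas2* rose with traction and *Arntl* did not pass the test. Averaged over both genotypes, *Npas2* rose 2.74-fold with traction (log2 fold change 1.46, standard error 0.34, adjusted p = 0.0319 by edgeR's quasi-likelihood test). Its levels in *Tem1WT/WT* mice were 1.95, 2.03 and 3.23 CPM in the sham group and 10.3, 10.6 and 6.88 CPM with traction, a 3.84-fold rise (log2 1.94, standard error 0.48, adjusted p = 0.0383) between groups that did not overlap. Those in *Tem1lacZ/lacZ* mice were 3.31, 1.12 and 2.16 CPM in the sham group and 1.95, 6.81 and 4.13 CPM with traction, and these overlapping groups differed by 0.97 on the log2 scale (standard error 0.48, adjusted p = 0.622). *Npas2* rests on 47 to 479 counts per library, the fewest of the 10 genes. Between mice of one group it followed the endothelial markers (r = 0.838) and the macrophage markers (r = 0.810). In *Tem1WT/WT* mice the endothelial sum was 333 to 484 CPM in the sham group and 801 to 958 CPM with traction. The macrophage sum was 1188 to 1756 CPM and 1782 to 2665 CPM, with *Cd14* alone at 979 CPM in replicate 1 of the traction group. There edgeR called 3 of 6 endothelial and 1 of 6 macrophage markers higher, where 5.61% of all genes rose. In *Tem1lacZ/lacZ* mice both sums overlapped. The endothelial sum was 241 to 435 CPM and 369 to 633 CPM with traction, the macrophage sum 848 to 1519 CPM and 924 to 1882 CPM. Whether these cells carry the rise of *Npas2* was not tested.

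*Arntl*, which codes for the partner shared by CLOCK and NPAS2, had similar levels in both sham groups and its lowest single level in a *Tem1WT/WT* traction mouse. It stood at 21.7, 23.6 and 23.3 CPM in *Tem1WT/WT* sham mice, at 24.2, 22.6 and 13.7 CPM with traction, and at 26.4, 23.2 and 20.9 CPM in *Tem1lacZ/lacZ* sham mice. With traction in *Tem1lacZ/lacZ* mice it was 16.4, 19.0 and 14.9 CPM, below all 3 of their sham mice. That log2 fold change, −0.49 (standard error 0.20), had the smallest adjusted p of the 9 genes tested in *Tem1lacZ/lacZ* mice, 0.599 from edgeR. Averaged over genotypes *Arntl* gave −0.34 (standard error 0.14, adjusted p = 0.141 from edgeR).

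Among the repressors of the negative limb, *Cry1* rose with traction and its paralog *Cry2* did not pass the test. *Cry1* rose 1.61-fold averaged over genotypes (log2 0.69, standard error 0.16, adjusted p = 0.0336 by edgeR's quasi-likelihood test). It went in *Tem1WT/WT* mice from 7.77, 12.2 and 8.96 CPM in the sham group to 22.8, 15.0 and 18.3 CPM with traction, which is 1.94-fold (log2 0.96, standard error 0.23, adjusted p = 0.0364). Its levels in *Tem1lacZ/lacZ* mice were 7.81, 9.80 and 7.33 CPM in the sham group and 9.86, 13.6 and 9.94 CPM with traction. Here too the lowest traction mouse lay above the highest sham mouse, and the log2 fold change of 0.42 (standard error 0.23) did not pass (adjusted p = 0.646 from edgeR). *Cry1* was thus the one gene of the 10 with all traction mice above all sham mice in both genotypes. *Cry2* gave −0.05 averaged over genotypes (standard error 0.19, adjusted p = 0.879) and ranged from 13.6 to 29.3 CPM over all libraries.

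*Per2* and *Per3*, the relatives of *Per1*, passed in no comparison of traction and sham. *Per2* was 15.4, 12.3 and 8.66 CPM in *Tem1WT/WT* sham mice, 11.8, 14.5 and 22.6 CPM with traction, and 11.7 to 16.4 CPM in the 6 *Tem1lacZ/lacZ* mice, with a log2 fold change averaged over genotypes of 0.20 (standard error 0.19, adjusted p = 0.496 from edgeR). *Per3* was 56.9, 30.4 and 24.7 CPM in *Tem1WT/WT* sham mice and 10.7, 25.4 and 35.7 CPM with traction. The highest and the lowest *Per3* level of the series were thus both found in *Tem1WT/WT* mice, and their groups overlapped. *Per3* of *Tem1lacZ/lacZ* mice stood at 42.1, 27.8 and 30.6 CPM in the sham group and 29.0, 35.9 and 35.6 CPM with traction. Averaged over genotypes its log2 fold change was −0.32 (standard error 0.29, adjusted p = 0.467 from edgeR).

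The same wide spread between mice was seen for *Nr1d1*, the repressor of *Arntl*, and for the D-box activator *Dbp*. *Nr1d1* was 75.2, 33.2 and 31.4 CPM in *Tem1WT/WT* sham mice, 40.0, 23.7 and 47.2 CPM with traction, 39.9, 32.2 and 39.7 CPM in *Tem1lacZ/lacZ* sham mice and 21.6, 31.3 and 50.8 CPM with traction. *Dbp* was 71.8, 29.3 and 25.9 CPM in *Tem1WT/WT* sham mice, 14.5, 21.8 and 40.2 CPM with traction, 34.6, 26.2 and 30.0 CPM in *Tem1lacZ/lacZ* sham mice and 26.7, 23.5 and 38.1 CPM with traction. Replicate 1 of the *Tem1WT/WT* sham group was the highest of all 12 libraries for both genes. Averaged over genotypes the log2 fold changes were −0.22 for *Nr1d1* (standard error 0.28, adjusted p = 0.616) and −0.38 for *Dbp* (standard error 0.30, adjusted p = 0.406, both from edgeR). In *Tem1WT/WT* mice *Dbp* gave −0.73 (standard error 0.43, adjusted p = 0.268 from edgeR) and −0.12 without that sham mouse.

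*Nfil3*, the D-box repressor, had its highest levels in *Tem1WT/WT* traction mice. It was 16.1, 27.3 and 22.1 CPM in *Tem1WT/WT* sham mice and 190.1, 48.4 and 29.9 CPM with traction, so the 3 traction mice lay above the sham mice but were spread widely among themselves. All 6 libraries of *Tem1lacZ/lacZ* mice lay between 15.8 and 24.2 CPM. The rise in *Tem1WT/WT* mice passed the test at 4.09-fold (log2 2.03, standard error 0.55, adjusted p = 0.0464 by edgeR's quasi-likelihood test), and without replicate 1 the log2 fold change was 0.82 and did not pass (adjusted p = 0.0924). The log2 fold change in *Tem1lacZ/lacZ* mice was 0.19 (standard error 0.53, adjusted p = 0.936), and averaged over genotypes it was 1.11 (standard error 0.38, adjusted p = 0.0812). Within groups *Nfil3* followed the neutrophil markers (r = 0.896 over 12 libraries), of which 4 of 6 tested rose with traction in *Tem1WT/WT* mice, where 5.61% of all genes rose. The part of these cells in the level of *Nfil3* was not tested.

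**Figure D3:**
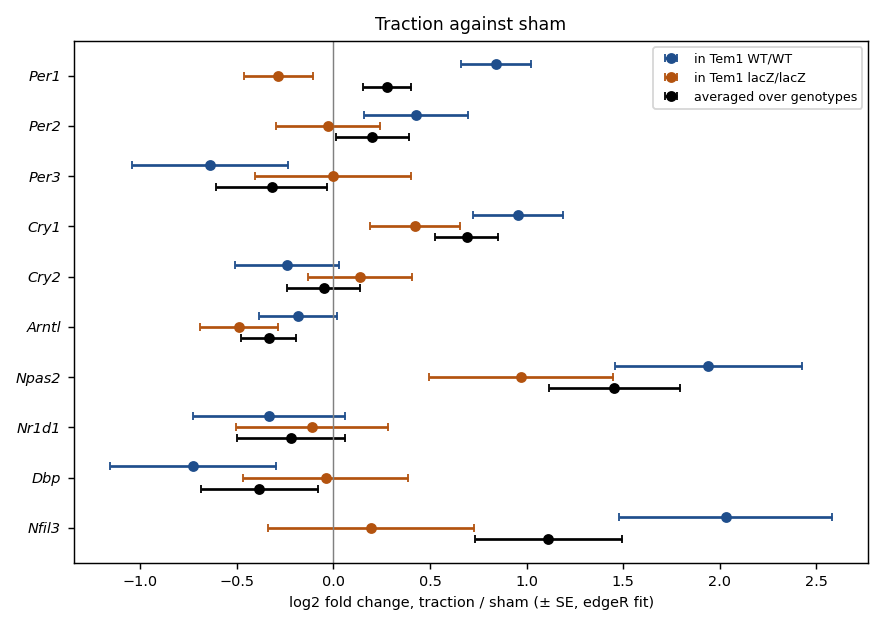
Log2 fold change between traction and sham (horizontal axis) of each clock gene in *Tem1WT/WT* mice (blue), in *Tem1lacZ/lacZ* mice (orange) and averaged over both (black). Points are estimates and bars ± 1 standard error from the edgeR fit. *Npas2* and *Cry1* lie right of 0 in all 3 contrasts, *Nfil3* reaches 2.03 in *Tem1WT/WT* mice, and the estimates of *Per1* have opposite signs in the genotypes.

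Counted over the genes, 2 of 10 rose with traction and 0 fell when both genotypes were averaged, where 9.73% of all 18853 genes tested changed and 6.5% rose (1226 of 1835 higher, or 756 of 1478 with upper quartile scaling). Their median log2 fold change was 0.07, beside −0.02 for all genes. Of the 9 genes other than *Per1*, 3 rose in *Tem1WT/WT* mice (*Npas2*, *Cry1* and *Nfil3*) and 0 fell, where 9.15% of all genes changed and 5.61% rose (1057 of 1725 higher, or 734 of 1673 with upper quartile scaling), and with *Per1* the groups did not overlap for 4 of 10 genes, where 35.7% of all genes did not overlap. In *Tem1lacZ/lacZ* mice edgeR called 0 of 9, as did DESeq2 and limma-voom, 1 of 9 had an unadjusted p under 0.05, and edgeR called 0% of all genes, with 8.12% at an unadjusted p under 0.05. There 2 of 10 genes did not overlap (*Cry1* higher, *Arntl* lower), where 12.9% of all genes did not. How far the traction effect differed between the genotypes was called by edgeR, DESeq2 or limma-voom for 0 of 9 genes, 1 of 9 had an unadjusted p under 0.05, and edgeR called 0% of all genes, with 8.91% at an unadjusted p under 0.05. The largest of these differences was that of *Nfil3* (log2 −1.84, standard error 0.76, adjusted p = 0.548 from edgeR), followed by *Npas2* (−0.97, standard error 0.67, adjusted p = 0.646).

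These calls depended on single libraries. The call of *Cry1* averaged over genotypes was lost without any 1 of the 6 sham mice or replicates 2 or 3 of the *Tem1lacZ/lacZ* traction group (adjusted p 0.0547 to 0.0944 by edgeR, log2 fold change 0.61 to 0.80). That of *Npas2* was lost without replicates 1 or 2 of the *Tem1WT/WT* sham group, or replicates 2 or 3 of either *Tem1lacZ/lacZ* group (adjusted p 0.0648 to 0.0850, log2 fold change 1.21 to 1.47). *Npas2* was lost in *Tem1WT/WT* mice without any of their sham mice, replicates 1 or 3 of their traction group or replicate 3 of either *Tem1lacZ/lacZ* group (0.0523 to 0.136, log2 fold change 1.81 to 2.22). *Cry1* was lost there without these 7 or replicate 1 of the *Tem1lacZ/lacZ* sham group (0.0509 to 0.142, log2 fold change 0.77 to 1.18). *Nfil3* kept its call without replicates 2 or 3 of the *Tem1WT/WT* traction group and lost it without any of the other 10 libraries (0.0526 to 0.159, log2 fold change 0.82 to 2.24). In each of these fits the estimate stayed above 0.

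Beyond the 10 genes, a list of 20 others of the clock (positive and negative regulators, kinases, ubiquitin ligases and outputs) was read in the same fit, and all 20 were tested. Averaged over genotypes 1 of 20 fell with traction and 0 rose, with a median log2 fold change of −0.08, where 9.73% of all genes changed. That gene was *Usp2*, a clock-driven ubiquitin protease, which fell by 0.64 on the log2 scale (standard error 0.12, adjusted p = 0.0214 by edgeR). Its levels were 29.6, 22.8 and 20.6 CPM in *Tem1WT/WT* sham mice and 11.3, 12.5 and 12.2 CPM with traction, and 21.0, 19.8 and 18.1 CPM against 17.7, 17.4 and 14.2 CPM in *Tem1lacZ/lacZ* mice. In both genotypes every traction mouse lay below every sham mouse. The averaged call was lost without replicate 1 of the *Tem1WT/WT* sham group, replicate 2 of the *Tem1lacZ/lacZ* sham group or replicates 2 or 3 of the *Tem1lacZ/lacZ* traction group (adjusted p 0.0525 to 0.0670, log2 fold change −0.66 to −0.56).

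In *Tem1WT/WT* mice 2 of the 20 fell with traction and 0 rose, a share near the 9.15% of all genes that changed. *Usp2* fell by 1.02 on the log2 scale (standard error 0.16, adjusted p = 0.0242 by edgeR) and *Rora*, an activator of *Arntl* that competes with NR1D1, by 0.79 (standard error 0.20, adjusted p = 0.0384). *Rora* was 144.9, 116 and 115 CPM in *Tem1WT/WT* sham mice and 58.4, 94.4 and 64.9 CPM with traction, and 110.4, 106 and 103 CPM against 141, 101 and 126 CPM in *Tem1lacZ/lacZ* mice. Its call held without replicate 2 of the *Tem1WT/WT* traction group or replicates 1 or 2 of the *Tem1lacZ/lacZ* traction group and was lost without any of the other 9 libraries (adjusted p 0.0501 to 0.137, log2 fold change −0.84 to −0.67). *Usp2* lost its call in *Tem1WT/WT* mice without replicates 1 or 2 of their sham group (adjusted p 0.109 and 0.0869, log2 fold change −0.86 and −1.04). None (0 of 20) was called in *Tem1lacZ/lacZ* mice by edgeR, DESeq2 or limma-voom, and 0 of 20 had an unadjusted p under 0.05. Over all 18853 genes tested, edgeR called 0 there, DESeq2 23 and limma-voom 377, with 8.12% at an unadjusted p under 0.05 in edgeR. The difference between the genotypes was called for 0 of 20 genes by each of these tools. Of all genes, edgeR called 0 for it, DESeq2 69 and limma-voom 0. In edgeR 3 of 20 had an unadjusted p under 0.05, where 8.91% of all genes had one. *Usp2* stood at 0.76 and *Rora* at 0.99 (standard errors 0.23 and 0.28, adjusted p = 0.548 for both from edgeR).

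*Clock* lay between 68.4 and 95.7 CPM in all 12 libraries, with a log2 fold change averaged over genotypes of −0.07 (standard error 0.12, adjusted p = 0.714 from edgeR). *Nr1d2*, the paralog of *Nr1d1*, was 147, 93.1 and 100.4 CPM in *Tem1WT/WT* sham mice, 68.1, 86.6 and 104 CPM with traction and 85.1 to 119 CPM in *Tem1lacZ/lacZ* mice, with a change of −0.29 averaged over genotypes (standard error 0.14, adjusted p = 0.196 from edgeR). Neither passed in any comparison of traction and sham.

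Mice of one group also differed from each other in the levels of these genes. To describe this, each gene's log2 CPM was set against its group mean, and 8 pairs of clock genes were compared over the 12 libraries with a two-sided exact permutation test within groups, with p adjusted over the 8 pairs. *Per3* followed *Dbp* with r = 0.89 (exact permutation p = 0.00617, adjusted 0.0494). Spearman's rho was 0.853 (exact permutation p = 0.0108, adjusted 0.0648). The span was set by replicate 1 of the *Tem1WT/WT* sham group and replicate 3 of the *Tem1WT/WT* traction group at one end and replicate 1 of the *Tem1WT/WT* traction group at the other. Leaving out the 2 libraries farthest from the median of *Dbp* gave r = 0.717 (exact permutation p = 0.125), and leaving out replicate 1 of the *Tem1WT/WT* sham group gave 0.851 (exact permutation p = 0.0556). The call held without replicates 1 or 2 of the *Tem1lacZ/lacZ* traction group and was lost without any 1 of the other 10 libraries (adjusted p 0.0741 to 0.338 from the exact permutation test, r = 0.836 to 0.922).

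*Arntl* ran opposite to *Dbp* (r = −0.68, exact permutation p = 0.0247, adjusted 0.0988; rho = −0.657, p = 0.0386, adjusted 0.103), and *Nfil3* did so too (r = −0.73, exact permutation p = 0.0509, adjusted 0.136; rho = −0.825, p = 0.0162, adjusted 0.0648). Neither passed after adjustment, but *Arntl* and *Dbp* did without replicate 1 of the *Tem1lacZ/lacZ* sham group (r = −0.766, adjusted 0.0370 from the exact permutation test). Without the 2 libraries farthest from the median of *Arntl*, *Arntl* and *Dbp* gave r = −0.405 (exact permutation p = 0.194). The 5 other pairs had exact permutation p-values of 0.115 to 0.724. Among them *Per1* was not seen to follow *Per2* (r = −0.25, rho = −0.0769) or *Dbp* (r = −0.21, rho = −0.0140), and both correlations turned positive, to 0.378 and 0.465, without replicate 1 of the *Tem1WT/WT* traction group.

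**Figure D4:**
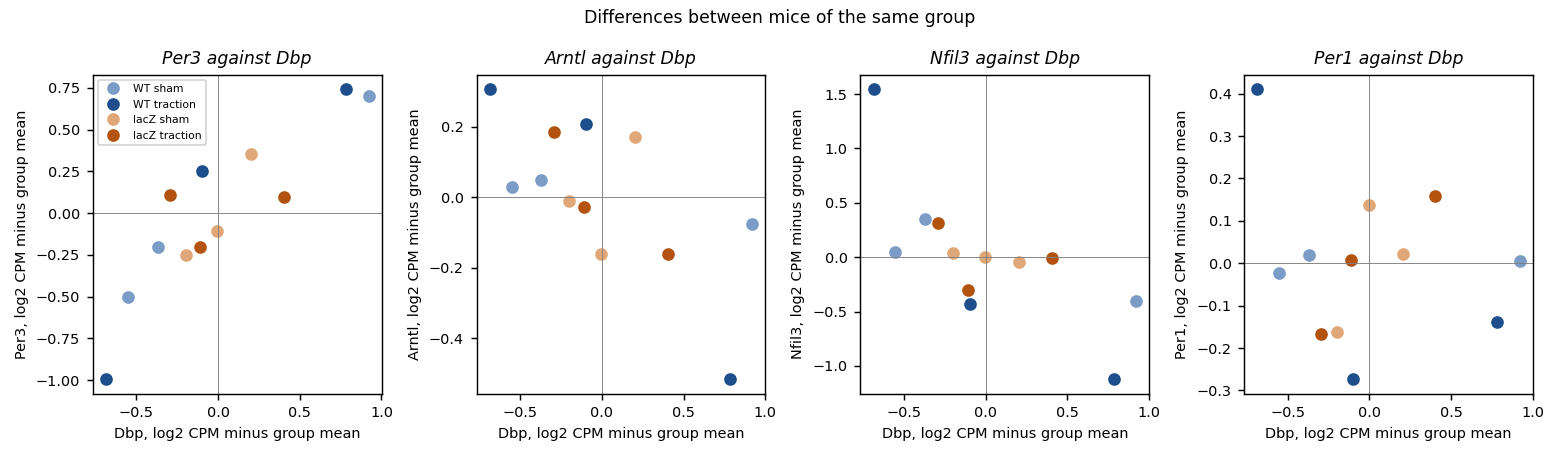
Log2 CPM of *Per3*, *Arntl*, *Nfil3* and *Per1* against that of *Dbp*, each minus its group mean, in 12 scar libraries coloured by group. Each point is a mouse. *Per3* rises with *Dbp* (r = 0.89), *Arntl* and *Nfil3* run the other way (r = −0.68 and −0.73), and *Per1* has r = −0.21 with a single *Tem1WT/WT* traction mouse at the upper left.

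Ranked by likeness to *Dbp* among 11005 genes of mean log2 CPM 3 or more, other clock genes stood near the top. The 5 genes most like *Dbp* were *Tef* (r = 0.953), *Tmem230* (0.948), *Nr1d2* (0.938), *Slc22a5* (0.926) and *Eef2k* (0.920). *Hlf*, the remaining gene of the family of *Dbp* and *Tef*, was at rank 14 and *Per3* at rank 15, followed by *Cry2* at 46, *Bhlhe41* at 74, *Per2* at 78 and *Nr1d1* at 266. At the far end *Arntl* was at rank 10785 and *Nfil3* at 10902, and *Clock* stood near the middle at 6530. The 5 genes least like *Dbp* were *Zfp719* (r = −0.920), *Baz1a* (−0.915), *Pi15* (−0.902), *Nus1* (−0.902) and *Pi4k2b* (−0.895). Ranks moved with single mice. Without replicate 1 of the *Tem1WT/WT* sham group *Tef* was at rank 14, *Nr1d2* at 50, *Hlf* at 55, *Per3* at 113, *Per2* at 475, *Cry2* at 583 and *Nr1d1* at 2328. These correlations share their libraries and are a description. *Dbp* and *Per3* also ran opposite to the neutrophil markers within groups (r = −0.673 and −0.848), and *Dbp* had r = 0.179 with the skeletal muscle markers that set that sham mouse apart.

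*Per1* had other neighbours. The genes most like it within groups were *Ccdc71l* (r = 0.945), *Igtp* (0.941), *Samhd1* (0.941), *Diaph1* (0.940) and *Gm12250* (0.936), and those least like it *Adgrg6* (r = −0.962), *Alkbh1* (−0.956), *Serpina3b* (−0.936), *Serpina3j* (−0.926) and *Zfp866* (−0.912). None of these 10 belongs to the clock lists. The clock gene nearest to *Per1* was *Nampt*, a clock-controlled enzyme of NAD synthesis, at rank 125 with r = 0.839. *Nampt* reached 601 CPM in replicate 1 of the *Tem1WT/WT* traction group and lay between 73.1 and 151 CPM in the other 11 libraries.

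Since *Per1* also answers signals from outside the clock, known targets of those signals were read beside it. Of 8 glucocorticoid targets, 1 rose with traction averaged over genotypes and in *Tem1WT/WT* mice, *Fkbp5* (log2 0.77 and 1.03, adjusted p = 0.0342 and 0.0397 by edgeR), and 0 fell. Over all genes 9.73% and 9.15% changed in these contrasts, and 6.5% and 5.61% rose. *Fkbp5* lost these calls in 8 and in 9 of the 12 fits without a library (adjusted p 0.0572 to 0.0877 and 0.0516 to 0.121). *Sgk1*, *Tsc22d3* and *Dusp1*, the 3 most abundant of this list, gave log2 fold changes of −0.18, −0.28 and 0.29 averaged over genotypes. Of 8 immediate early genes edgeR called 0 with traction in either genotype or averaged, with 3 at an unadjusted p under 0.05 in *Tem1WT/WT* mice, 1 in *Tem1lacZ/lacZ* mice and 1 averaged, where 31.4%, 8.12% and 30.7% of all genes had one. *Junb* reached 982 CPM in replicate 1 of the *Tem1WT/WT* traction group against 107 to 177 CPM in the other 11 libraries, and *Egr1* 328 CPM against 47.2 to 127 CPM. Between the genotypes 1 of the 8 immediate early genes and 0 of the 8 glucocorticoid targets did not overlap in the sham groups, where 26.8% of all genes did not. With traction 5 (all lower in *Tem1lacZ/lacZ* mice) and 4 (3 lower, 1 higher) did not overlap, where 26.6% of all genes did not. The gene apart in the sham groups was *Sik1*, a CREB target. It stood at 72.0, 50.4 and 56.6 CPM in *Tem1WT/WT* sham mice, 74.1, 78.8 and 67.9 CPM with traction, and 30.5 to 47.1 CPM in the 6 *Tem1lacZ/lacZ* mice. The gene that was higher with traction was *Zbtb16*, a glucocorticoid target, at 5.96 to 14.4 CPM in *Tem1WT/WT* and 32.6 to 42.2 CPM in *Tem1lacZ/lacZ* traction mice.

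Some of the 10 genes share exon bases with a neighbour on the other strand, and the strand setting of the counting is not given in the sources used here. In GENCODE's annotation of GRCm38, *Nr1d1* (chr 11, 98767932 to 98775333) shares 263 exon bases with *Thra*, *Dbp* (chr 7, 45705088 to 45710203) 539 with *Sphk2*, *Cry2* (chr 2, 92403646 to 92434043) 295 with *D930015M05Rik* and *Arntl* (chr 7, 113207465 to 113314126) 33 with *Gm45355*. If strand was not used, reads from these stretches cannot be assigned to one gene. *Thra* and *Sphk2* gave log2 fold changes of 0.44 and 0.17 with traction averaged over genotypes (adjusted p = 0.169 and 0.343 from edgeR). Neither these nor the changes of *Nr1d1* and *Dbp* passed, and the part of shared reads in these levels was not tested. *Per3* (chr 4, 151003652 to 151044665) lies wholly within *Camta1* on the same strand with 0 exon bases shared. *Per1* (chr 11, 69095217 to 69109960), *Per2* (chr 1, 91415982 to 91459324), *Cry1* (chr 10, 85131700 to 85185064) and *Nfil3* (chr 13, 52967209 to 52981073) overlap no other gene there, and *Npas2* (chr 1, 39193731 to 39363236) holds a pair of pseudogenes with 0 exon bases shared.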

How the data were processed

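RNA-seq of 12 mouse scars, 3 in each of 4 groups, was read from one file per mouse. The authors made stranded mRNA libraries, trimmed the paired reads with fastp 0.20.0, aligned them to GRCm38 with HISAT2 2.1.0 and deposited whole-number counts per gene from featureCounts 2.0.0, without normalization. Tool versions are those of the submitters' processing notes. The annotation, strand setting and treatment of reads with several alignments are not given in the sources used here. Groups came from the sample titles. The labels name separate scars, so the p-values of edgeR measure the spread between mice of a group, estimated over all 12 libraries together. No pair of replicates was a copy (chi-square per degree of freedom 92.7 to 628).

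In R 4.3.3 with edgeR 4.0.16, genes passing filterByExpr were scaled by TMM and fitted by robust quasi-likelihood with a mean for each group (8 residual degrees of freedom, biological coefficient of variation 34.2%). Two-sided p-values were adjusted after Benjamini and Hochberg over the 18853 genes tested and called under 0.05. Correlations used log2 CPM with a prior count of 2. Exon lengths and overlaps came from GENCODE vM21. On simulated data with 3 mice per group, the traction contrast averaged over genotypes recovered 53 of 100 genes changed by 1 on the log2 scale and 94 of 100 changed by 2, with 4 false calls among 18479 genes. limma 3.58.1 (voom) and DESeq2 1.42.0 served as alternatives. Figures were drawn with matplotlib 3.10.9 in Python 3.11.15.

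The genes followed, the other lists and the tests were chosen with earlier results of these data known. Named besides the 10 genes were *Clock*, *Nr1d2*, other clock genes past the threshold, the 3 most abundant genes of each target list, the 5 most and 5 least like *Per1* and *Dbp*, *Cd248* and overlapping genes. *Hlf*, *Bhlhe41*, *Nampt*, *Fkbp5*, *Zbtb16*, *Bhlhe40*, *Cd14* and *Camta1* were named after their values were seen.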

Additional observations from a re-analysis of the deposited data

Results flagged for a closer look

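The estimates of *Per1* with traction had opposite signs in the genotypes. All 3 *Tem1WT/WT* traction mice lay above the mean of their sham group and all 3 *Tem1lacZ/lacZ* traction mice below the mean of theirs, a difference between the log2 fold changes of −1.13. This difference was not tested, since *Per1* was chosen for its genotype difference in the same libraries, and it was −0.84 without replicate 1 of the *Tem1WT/WT* traction group.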

How the results depend on the processing

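With traction averaged over genotypes, edgeR called 2 of the 10 genes under each other filter, scaling and model, limma-voom 2 and DESeq2 3, and 0 to 3 without 1 library. Of the 20 other clock genes DESeq2 called 3, limma-voom 2, and fits without 1 library 0 to 3. In *Tem1WT/WT* mice limma-voom called 1 of the 9 genes, the fit on only the 6 libraries compared 0, and fits without 1 library 0 to 3. *Nfil3* also lost its call there with upper quartile scaling and when all genes with 1 count were kept, and *Cry1* and *Npas2* held theirs. Of the 20 others limma-voom called 1, the 6 libraries 0, and fits without 1 library 0 to 4. With the replicate number as a block, 1 of the 9 genes was called in *Tem1WT/WT* mice (*Cry1*, against 3 without the block) and *Per3* gave 0.0086 in *Tem1lacZ/lacZ* mice. Of the 20 others *Usp2* and *Bhlhe40* were called in *Tem1WT/WT* mice with the block, and *Rora* was not (adjusted p = 0.0536 by edgeR). The block moved no other count of calls among these lists. The labels give same-numbered mice no link beyond the number. Libraries of the same number had correlations of −0.324 to 0.250, median 0.089, with 8 of 18 over 0.1. Those of different numbers had −0.403 to 0.373, median −0.019, with 2 of 36 over 0.1. Of 12 libraries 9 correlated best with their own number, and whether the number marks a batch was not tested.

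Some estimates that did not pass changed sign. *Cry2* averaged over genotypes gave 0.076 with limma-voom. In *Tem1lacZ/lacZ* mice *Per2* gave 0.0054 with all genes of 1 count, and *Per3*, at −0.0010, gave 0.031 with all genes of 1 count, 0.0066 with DESeq2's size factors, 0.0065 with DESeq2 and 0.13 with limma-voom, which also gave *Nr1d1* 0.059 and *Dbp* 0.055. Without 1 library the ranges that crossed 0 were, averaged over genotypes, −0.15 to 0.089 for *Cry2* and −0.41 to 0.043 for *Nr1d1*. Those of *Tem1WT/WT* mice were −0.46 to 0.040 for *Cry2*, −0.35 to 0.039 for *Arntl* and −0.54 to 0.19 for *Nr1d1*. Those of *Tem1lacZ/lacZ* mice were −0.12 to 0.11 for *Per2*, −0.093 to 0.24 for *Per3*, −0.50 to 0.18 for *Nr1d1* and −0.28 to 0.11 for *Dbp*. The difference between genotypes ran from −0.30 to 0.53 for *Nr1d1*, and the genotype difference of *Per1* with traction from −2.15 to −1.75. Between the genotypes 6 of 10 genes crossed 0 in the sham groups, *Dbp* (−0.72 to 0.13), *Nr1d1* (−0.52 to 0.21), *Per3* (−0.38 to 0.28), *Npas2* (−0.58 to 0.17), *Cry1* (−0.36 to 0.016) and *Arntl* (−0.076 to 0.10), and 4 with traction, *Cry2* (−0.14 to 0.24), *Dbp* (−0.039 to 0.71), *Nr1d1* (−0.49 to 0.19) and *Per2* (−0.37 to 0.10).

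Not centred on the groups, r was −0.146 for *Arntl* and *Npas2*, −0.288 for *Arntl* and *Dbp*, −0.663 for *Dbp* and *Nfil3* (permutation p = 0.0432, adjusted 0.173) and 0.0523 for *Per1* and *Per2*. Without the 2 libraries farthest from the median of the gene named first it was −0.405 for *Arntl* and *Dbp*, 0.0349 for *Arntl* and *Per3*, 0.717 for *Dbp* and *Per3*, 0.275 for *Per1* and *Per2* and 0.393 for *Per1* and *Dbp*. Without 1 library it was −0.819 to −0.438 for *Arntl* and *Dbp*, 0.836 to 0.932 for *Dbp* and *Per3*, −0.802 to −0.569 for *Dbp* and *Nfil3*, −0.401 to 0.378 for *Per1* and *Per2* and −0.336 to 0.465 for *Per1* and *Dbp*. The causes of these changes were not tested. Leaving out each library for the likeness to *Dbp* was added after the data were seen.

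The share of all genes called moved more than these estimates. Averaged over genotypes 1835 genes were called, against 1198 with all genes of 1 count, 1167 with an additive model, 3850 with DESeq2, 3850 with limma-voom and 0 to 3422 without 1 library. For *Tem1WT/WT* mice 1725 were called, against 1011 with all genes of 1 count, 4047 with DESeq2, 735 with limma-voom, 0 to 2861 without 1 library and 0 with the 6 libraries alone, where 4876 had an unadjusted p under 0.05. For *Tem1lacZ/lacZ* mice DESeq2 called 23 genes, limma-voom 377 and edgeR 73 without replicate 1 of the traction group. For the difference between the traction effects DESeq2 called 69 and edgeR 31 without replicate 2 of the *Tem1WT/WT* traction group. Between the genotypes DESeq2 called 27 genes in the sham groups, against 2, and 2309 with traction, against 20. Upper quartile scaling moved the median log2 fold change of all genes with traction in *Tem1WT/WT* mice from −0.01 to −0.12. It turned no sign among the 10 genes in that contrast. Between the genotypes with traction it moved the median of all genes from 0.01 to 0.14. There the estimates of *Nr1d1* ran from −0.49 to 0.36 over all the alternative fits.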
